A study of Rattus norvegicus with 55 samples.

Results

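The fibril-forming collagens of rat kidney and the genes that build onto their fibrils were followed over 4 sets of kidney samples: Col1a1, Col1a2, Col3a1, Col5a1, Col5a2 and Col12a1. All probe sets annotated to these 6 genes were taken, which gave 10 of the 8799 probe sets on the array, 4 of them for Col1a1 and 2 for Col3a1. Kidney total RNA of 55 Rattus norvegicus samples had been hybridised to 1-colour Affymetrix arrays, 1 sample per array. All samples are titled SHR, an abbreviation that the labels do not spell out, and all are described as Wistar-derived. The descriptions divide them into immature (13 arrays), young (14), mature (14) and a further set of 14 arrays whose description carries no stage word. No age, sex, treatment or genotype is given in the labels used here, and nothing says that arrays came from separate animals, so every p-value measures the spread between arrays, which may be technical.

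Fibrillar collagens are secreted as procollagen trimers, trimmed outside the cell and packed side by side into fibrils that carry tension. In kidney they lie in the interstitium, the vessel walls and the capsule and are made mainly by fibroblasts and mural cells, and their build-up is a hallmark of renal fibrosis. Col1a1 and Col1a2 encode both chains of type I collagen, the main fibril protein of most tissues. Col3a1 encodes the single chain of type III collagen, which mixes with type I in soft organs. Col5a1 and Col5a2 encode chains of type V collagen, which sits inside type I fibrils and limits their width. Col12a1 encodes type XII collagen, which does not form fibrils itself but binds along their surface. In RNA of whole kidney, fewer cells of a type and less RNA per cell cannot be told apart.

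Values are the deposited intensities, and differences are log2(intensity + 15.82), so a difference of 1 is close to a factor of 2 and the change of dim probe sets is understated. Each contrast was tested with limma over the 6555 probe sets that passed a filter on low values, and a probe set is called when its Benjamini-Hochberg adjusted p is below 0.05. All 10 collagen probe sets passed that filter and none was at 0 on any array, the lowest value being 27.2. The arrays differed in ways the stage words do not explain. A probe set of the MHC class II gene RT1-Bb, X56596_at, lay between 1411.5 and 2381.2 on 12 arrays and between 80.1 and 263 on the other 43, with 3 arrays of each description above 600. By the levels of control probe sets the arrays fell into 3 batches, a technical division made here from the values. Batch 1 held 4 mature and 6 immature arrays, batch 2 held 7 immature, 6 young and 6 without a stage word, and batch 3 held 8 young, 10 mature and 8 without a stage word. On 4 mature arrays (replicates 1, 5, 9 and 12) the 3'/5' signal ratio of GAPDH or beta-actin, a sign of RNA quality, was above 2.5. Replicates 5 and 12 belong to batch 1, the only batch with both mature and immature arrays. In batch 1, 3 mature and 3 immature arrays lay above 600, and 1 mature and 3 immature arrays below. Fits inside batch 1 are therefore not balanced for these ratios or for the sides. The tubule markers of kidney were bright on all arrays: the summed intensity of 9 proximal tubule markers was never below 39747.

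Collagen RNA was lower in mature than in immature kidney for 5 of the 6 genes. Of the 10 probe sets, 9 were called lower and none higher in mature kidney, where 24.4% of all tested probe sets were called and 14.1% were called lower. Blocking by batch gave 10 called lower, Col5a1 included, where 12.6% of all were called. Blocking by batch and side gave 8 called lower (9.34% of all called). With array weights instead, 9 were called lower and 1, Col5a1, higher, where 56.3% of all were called. The median change of the 10 was -1.61 on the log2 scale, beside 0.04 over all probe sets tested. In 6 of the 10 every mature array lay below every immature array, as in 0.32% of all probe sets. Col5a1 alone missed the test over all arrays in the fit without block or weights.

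**Figure D1:**
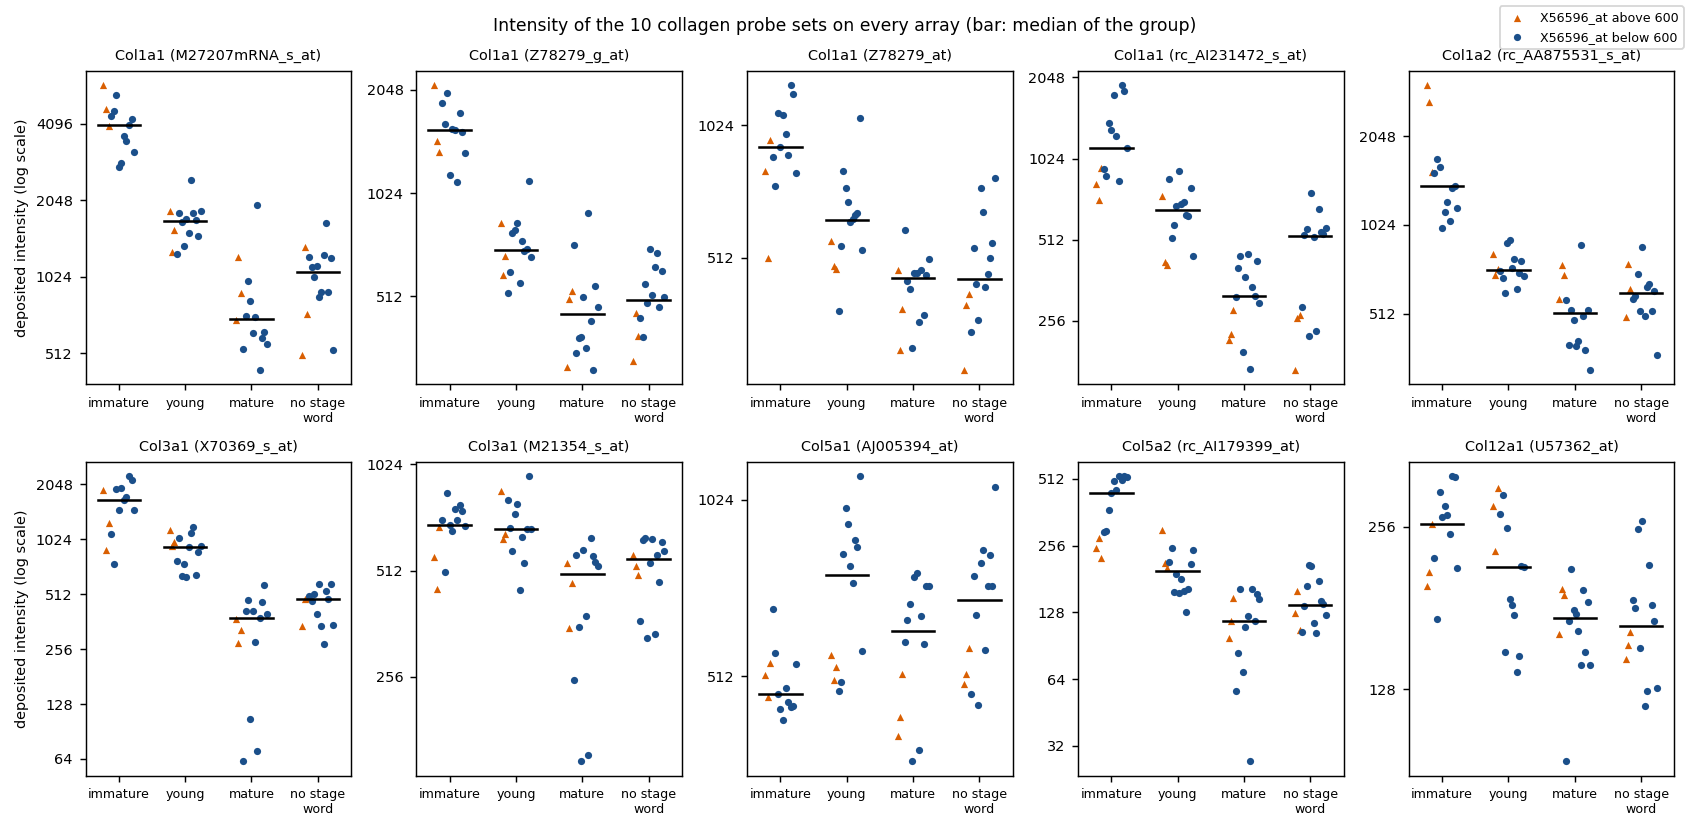
Deposited intensity (log axis) of the 10 collagen probe sets on every array, by description; bars are group medians, and triangles and circles are arrays with X56596_at above and below 600. In the main Col1a1 probe set all young and mature arrays lie below all immature arrays, while in Col5a1 the immature arrays hold the lowest median.

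Col1a1 was measured by 4 probe sets, of which M27207mRNA_s_at was the brightest and stands for the gene. Col1a1 lies on chromosome 10, 80380458 to 80397461, in assembly GRCr8. Its intensity by M27207mRNA_s_at ran from 2773.0 to 5831.6 with a median of 4055.8 in immature kidney, from 1255.6 to 2453.0 (median 1702.25) in young kidney, from 439.4 to 1960.1 (median 701.35) in mature kidney and from 503.4 to 1671.9 (median 1073.4) on the arrays without a stage word. No young, mature or unstaged array reached the lowest immature one. Mature and young kidney overlapped only through mature replicate 9, at 1960.1, since the other 13 mature arrays lay at or below 1230.2. Mature replicate 9 is among the 4 arrays with raised 3'/5' ratios. The change was -2.39 ± 0.16 (SE) on the log2 scale in mature against immature kidney, 5.23 times lower, with a limma adjusted p of 1.1e-17. It was -1.27 ± 0.16 in young against immature kidney (limma adjusted p = 5.5e-08) and -1.12 ± 0.16 in mature against young kidney (limma adjusted p = 3.5e-06).

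The other Col1a1 probe sets had smaller differences in the same direction. In mature against immature kidney Z78279_g_at changed by -1.71, rc_AI231472_s_at by -1.86 and Z78279_at by -1.05, all called. Z78279_at and Z78279_g_at derive from the same source sequence, so they are not independent readings of the gene. On mature replicate 9, with raised 3'/5' ratios, Z78279_g_at read 894.2, the highest of the mature arrays. There rc_AI231472_s_at read 169.4, the lowest of them, so the Col1a1 probe sets moved in opposite directions on that array. Against young kidney the mature changes were -0.61 for Z78279_g_at and -0.49 for Z78279_at, and rc_AI231472_s_at had medians of 315.45 in mature and 658.9 in young kidney, all called lower. By medians Z78279_g_at read 1559.8 in immature, 699.9 in young and 455.35 in mature kidney and 499.9 without a stage word, and Z78279_at read 913.4, 623.0 and 460.45 in that order of stages and 459.0 without a stage word. The call of Z78279_at in mature against young kidney had a limma adjusted p of 0.036 and was lost when any of 6 single arrays was left out, young replicate 5, 6 or 12 or mature replicate 5, 8 or 9, with a highest limma adjusted p of 0.066.

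Col1a2 (chromosome 4, 33518557 to 33553484), the partner chain of Col1a1 in type I collagen, was read by rc_AA875531_s_at. Its intensity was 997.2 to 3059.0 (median 1389.2) in immature, 600.5 to 912.2 (median 722.35) in young and 329.3 to 877.9 (median 514.55) in mature kidney, and 372.0 to 865.1 (median 600.95) without a stage word. All 14 young and all 14 mature arrays lay below the lowest immature array, while young and mature arrays overlapped. The highest mature value, 877.9, was again mature replicate 9, with raised 3'/5' ratios. Mature kidney was 2.85 times lower than immature kidney, a log2 change of -1.51 ± 0.14 (SE, limma adjusted p = 5.7e-13). Young kidney was 2.01 times lower than immature kidney (limma adjusted p = 2.5e-07). The mature against young change was -0.51 (limma adjusted p = 0.036). That call was lost without any one of young replicates 1, 3, 6 and 7 or mature replicates 5 and 14, where the limma adjusted p reached 0.057.

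Promoter windows of RefSeq (GRCr8, 250 bases before to 50 after the annotated start) were held for Col1a2, Col5a1 and Col5a2 among the 6 genes. Those of Col1a2 and Col5a2, both lower in mature kidney, are shown in part, over a stretch before the start that holds matches. The windows were searched on both strands for TATAAA, the TATA box, CCAAT, the CCAAT box, GGGCGG, the GC box, and CAGAC, the core letters of a Smad-binding element. Capitals mark matches, and a match to the other strand appears as its reverse complement. The Col1a2 stretch is chr4:33518307-33518416, plus strand, and the Col5a2 stretch is chr9:55090152-55090261, minus strand.
Col1a2: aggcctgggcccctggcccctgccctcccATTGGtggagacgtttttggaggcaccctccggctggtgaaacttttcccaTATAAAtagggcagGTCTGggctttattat
Col5a2: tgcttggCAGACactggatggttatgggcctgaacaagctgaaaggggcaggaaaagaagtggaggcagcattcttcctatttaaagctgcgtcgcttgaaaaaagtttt
The Col1a2 stretch holds CCAAT on the other strand, TATAAA, and CAGAC on the other strand, with no match overlapping another, and the Col5a2 stretch holds CAGAC. Outside the printed stretches the Col1a2 window held a further CAGAC on the other strand, beginning at base -23 from the start. The Col5a2 window held further CAGAC matches at bases 3 and 30. The Col5a1 window held 1 GGGCGG. Among 27457 promoter windows 14.3% held TATAAA, 37.7% held CCAAT, 34.9% held GGGCGG and 50% held CAGAC, so a match of any of these letters is common, and it describes the letters only.

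Col3a1 (chromosome 9, 54866646 to 54902578) was measured by X70369_s_at and by M21354_s_at. X70369_s_at, the brighter, ran from 751.9 to 2271.8 (median 1687.6) in immature, 635.5 to 1202.5 (median 933.3) in young and 62.0 to 572.6 (median 377.05) in mature kidney, and 273.5 to 584.7 (median 482.85) on the arrays without a stage word. Immature and young arrays overlapped, but every mature array and every array without a stage word lay below every young one. Only 3 of the 6555 probe sets, 0.0458%, were separated in that way between mature and young kidney. The log2 change was -2.37 ± 0.22 (SE) in mature against immature kidney, 5.16 times lower (limma adjusted p = 1.1e-12). It was -0.76 ± 0.22 in young against immature kidney (limma adjusted p = 0.010) and -1.60 ± 0.21 in mature against young kidney (limma adjusted p = 7.8e-07).

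The second Col3a1 probe set changed less, and was not called between young and immature kidney. M21354_s_at had medians of 689.6 in immature, 672.5 in young, 500.6 in mature kidney and 552.45 without a stage word. Its change was 0.02 in young against immature kidney, which missed the test (limma adjusted p = 0.94), and -0.73 in mature against immature kidney (limma adjusted p = 0.00052). Both Col3a1 probe sets were lowest on mature replicates 1, 5 and 9, which belong to the 4 arrays with raised 3'/5' ratios. There X70369_s_at read 62.0, 105.6 and 70.9, against 276.8 to 572.6 on the 10 mature arrays with lower ratios, and M21354_s_at read 250.1, 147.4 and 154.0, against 353.0 to 632.1. Without the 4 arrays with raised ratios X70369_s_at changed by -1.89 in mature against immature and by -1.13 in mature against young kidney, both called, while M21354_s_at changed by -0.42, called, and by -0.44, which missed the test (limma adjusted p = 0.067).

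The probe sets of the 2 type V collagen genes changed by unequal amounts between mature and immature kidney. Col5a2 (chromosome 9, 54940768 to 55090151, probe set rc_AI179399_at) ran from 226.1 to 526.2 (median 440.3) in immature, 128.3 to 301.8 (median 196.85) in young and 27.2 to 163.1 (median 116.5) in mature kidney, and 102.9 to 208.9 (median 137.45) without a stage word. No mature array reached the lowest immature one. It was 3.31 times lower in mature than in immature kidney, a log2 change of -1.73 ± 0.16 (SE, limma adjusted p = 2.1e-12), and both steps were called, -0.93 in young against immature and -0.80 in mature against young kidney. Col5a2 was also lowest on mature replicates 1, 5 and 9, at 56.7, 69.1 and 27.2, and its mature against immature change was -1.50 without the 4 arrays with raised ratios.

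Col5a1 (chromosome 3, 31606475 to 31755097, probe set AJ005394_at) ran from 430.1 to 665.1 (median 477.7) in immature, 483.1 to 1123.3 (median 762.2) in young and 366.0 to 767.4 (median 611.8) in mature kidney, and 456.6 to 1078.5 (median 689.75) without a stage word. All 4 sets overlapped. Over all arrays it was called higher in young than in immature kidney, by 0.49 ± 0.13 (SE, limma adjusted p = 0.0069), and its mature against immature change of 0.19 missed the test (limma adjusted p = 0.30). These values moved with batch. In batch 3, which has no immature array, Col5a1 read 736.7 to 1123.3 in young, 382.7 to 767.4 in mature kidney and 651.3 to 1078.5 without a stage word, whereas batches 1 and 2 stayed within 366.0 to 665.1 in all their groups. Inside batch 2 the young against immature change was 0.16 and missed the test (limma adjusted p = 0.11). Inside batch 1 the mature against immature change was -0.31 (limma adjusted p = 0.41), and with batch as a block over all arrays it was -0.27 (limma adjusted p = 0.045), the opposite sign of the unblocked value. The lowest value, 366.0, was mature replicate 5 of batch 1, an array with a raised 3'/5' ratio. In mature against young kidney Col5a1 changed by -0.30 without the block (limma adjusted p = 0.19) and by -0.45 with it (limma adjusted p = 0.00093).

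**Figure D2:**
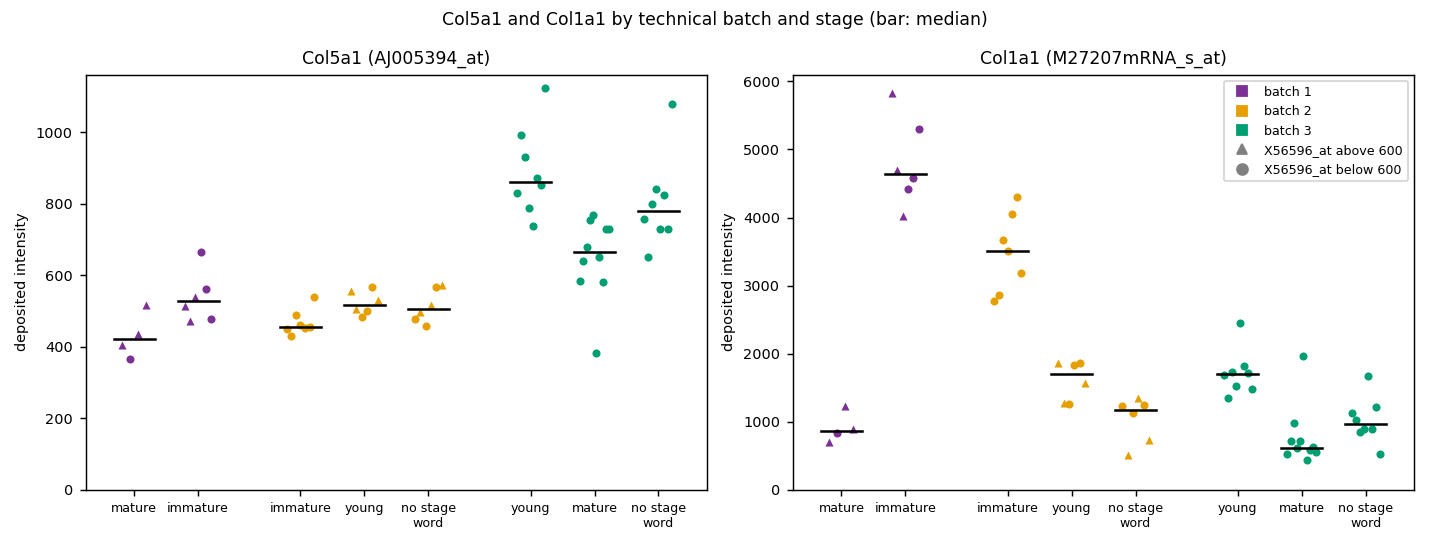
Deposited intensity of Col5a1 (left) and Col1a1 (right) by technical batch and description, with the median as a bar; colours are batches, triangles are arrays with X56596_at above 600 and circles arrays below it. The Col5a1 medians of batch 3 lie above those of batches 1 and 2, while Col1a1 is highest on the immature arrays of both batches that hold them.

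Col12a1 (chromosome 8, 89427834 to 89545886, probe set U57362_at) had the smallest change among the 5 genes called lower in mature than in immature kidney without the batch block. It ran from 172.4 to 317.3 (median 259.1) in immature, 137.6 to 301.7 (median 215.65) in young and 94.0 to 213.3 (median 173.55) in mature kidney, and 118.9 to 261.6 (median 167.35) without a stage word. The groups overlapped throughout. Mature kidney was 1.45 times lower than immature kidney, a log2 change of -0.54 ± 0.12 (SE, limma adjusted p = 0.00067), and neither single step was called, with -0.22 in young against immature (limma adjusted p = 0.20) and -0.32 in mature against young kidney (limma adjusted p = 0.13). Inside batch 1 the mature against immature change of Col12a1 was -0.28 and missed the test (limma adjusted p = 0.49).

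As read by their probe sets, the collagen genes differed in the size of their change. This was tested as the difference between the log2 changes of 2 genes on the same arrays, for 15 pairs, with 2-sided permutation tests of 100000 resamples adjusted over the pairs. Probe sets of the same gene also differed, from -2.39 to -1.05 in Col1a1 and from -2.37 to -0.73 in Col3a1. The other genes had 1 probe set each, and whether probe sets respond alike was not tested. In 12 of the 15 pairs the changes in mature against immature kidney were unequal at an adjusted p below 0.05 when each gene was read by its brightest probe set, and in 9 of the 15 when it was read by the mean of its probe sets. The change of Col1a1 minus that of Col1a2 was -0.88 ± 0.13 (SE, permutation p = 2e-05, the smallest the resamples can give), and minus that of Col12a1 it was -1.85. With the mean of the probe sets the difference between Col1a1 and Col1a2 was -0.24 (permutation p = 0.18, adjusted 0.26), so its call rests on the brightest Col1a1 probe set, while that between Col1a1 and Col12a1 was -1.21 (permutation p = 2e-05). Col1a2 minus Col3a1, 0.86 by the brightest probe sets (adjusted permutation p = 0.043), was 0.04 by the mean (adjusted 0.92), 0.48 without the 2 mature arrays with a GAPDH ratio above 3 (adjusted 0.15) and 0.62 inside batch 1 (adjusted 0.24). Col3a1 minus Col5a2, -0.64 by the brightest (adjusted permutation p = 0.0023), was 0.18 by the mean (adjusted 0.34). Col5a1 and Col5a2 differed by 1.92 ± 0.20 (SE, permutation p = 2e-05). The pairs that missed the threshold were Col1a1 with Col3a1, a difference of -0.02 ± 0.38 (SE, permutation p = 0.96), Col1a1 with Col5a2, -0.66 ± 0.32 (permutation p = 0.054), and Col1a2 with Col5a2, 0.22 ± 0.32 (permutation p = 0.52). Col1a1 minus Col5a2 depended on the setting. By adjusted permutation p it passed at -0.92 without the 2 arrays with a GAPDH ratio above 3 (0.0023), -0.92 with 4 times the offset (0.0035) and -1.09 inside batch 1 (0.014). It missed at -0.69 with quantile normalization (0.059), -0.59 with an offset of 7.91 (0.11) and -0.02 by the mean of the probe sets (0.92). Inside batch 1, with 4 mature and 6 immature arrays, an exact test can give no p below 0.0095. There the Col5a1 and Col5a2 changes still differed by 0.99 (exact p = 0.0095), while the change of Col5a1 minus that of Col12a1, 0.73 over all arrays, was -0.04 (exact p = 0.85).

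Young kidney stood between immature and mature kidney for most of the collagens: the median was highest in immature and lowest in mature kidney, with young kidney between them, for 9 of the 10 probe sets, as in 23.3% of all tested. Of the 10 probe sets 7 were called lower and 1, Col5a1, higher in young than in immature kidney, where 18.7% of all probe sets were called and 9.21% called lower. In 2 of the 10, Col1a1 M27207mRNA_s_at and Col1a2, no young array reached the lowest immature one, as in 0.473% of all probe sets. Between mature and young kidney 8 of the 10 were called lower, against 1.8% of all probe sets called and 1.19% called lower. With batch as a block the counts were 7 for young against immature kidney (8.89% of all called) and 9 for mature against young kidney (1.31%), all lower. The counts inside batches were 7 lower of 10 for mature against immature kidney in batch 1 (0.717% of all probe sets called), 7 lower for young against immature kidney in batch 2 (29.3%) and 4 lower for mature against young kidney in batch 3 (0.442%). The 4 were 3 of the Col1a1 probe sets, M27207mRNA_s_at, rc_AI231472_s_at and Z78279_at, and Col3a1 X70369_s_at, with changes of -1.25, -0.99, -0.63 and -1.44. The 2 contrasts with immature kidney share their immature arrays and the 2 with young kidney share their young arrays, so the counts are not independent of one another.

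**Figure D3:**
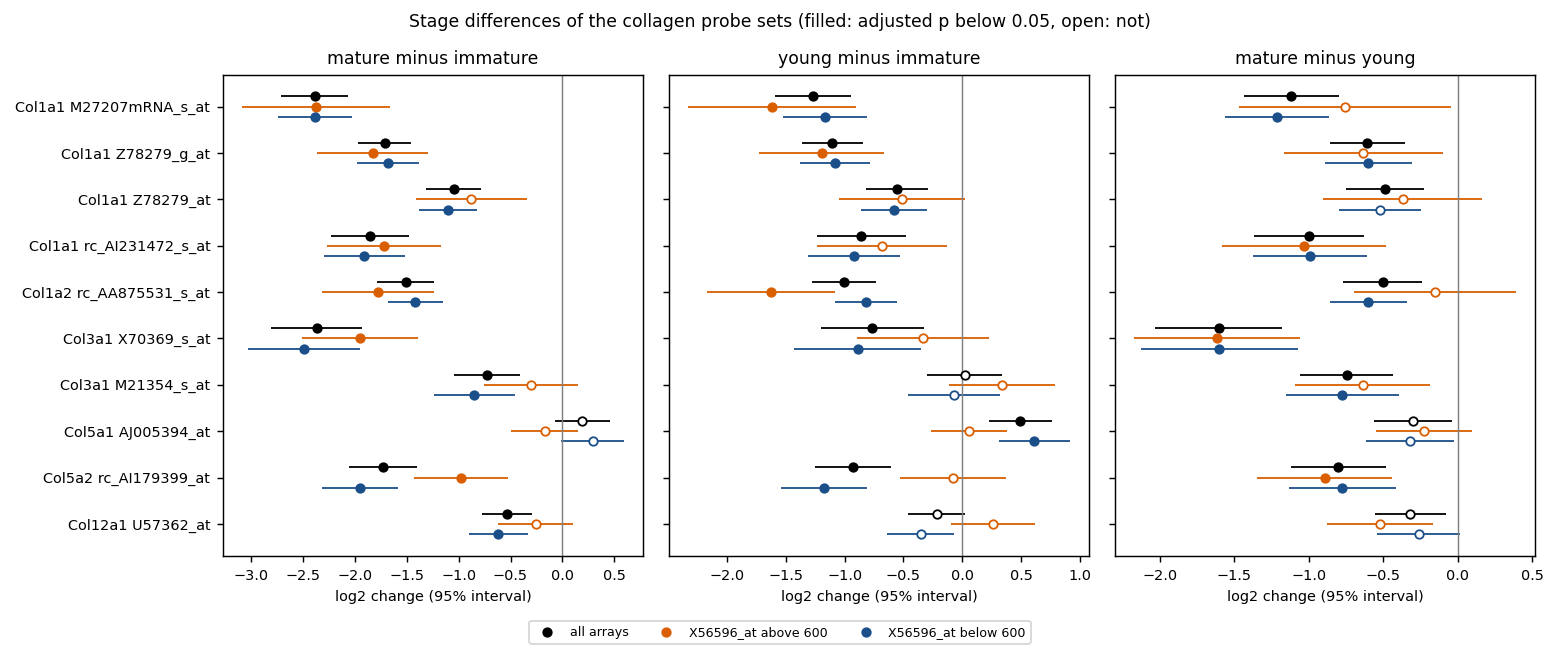
Log2 change with its 95% interval for each collagen probe set (rows) in 3 contrasts, over all arrays (black) and inside the arrays with X56596_at above 600 (orange) and below 600 (blue); filled points have an adjusted p below 0.05. Col1a1 and Col1a2 lie left of 0 in mature against immature kidney on both sides of 600, and Col5a1 lies nearest to 0 there.

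The 14 arrays without a stage word were, by their medians, closer to mature than to immature kidney for all 10 collagen probe sets. The share of all probe sets closer to mature kidney was not counted. Far fewer of all were called against mature (0.412%) than against immature kidney (27%), and batch 3 holds mature and unstaged but no immature arrays. Against immature kidney 8 of the 10 probe sets were called lower and 1, Col5a1, higher, where 27% of all probe sets were called and 14.4% called lower. A fit with batch as a block called 9, each lower (20% of all called). In 5 of the 10 no unstaged array reached the lowest immature one, as in 0.564% of all probe sets. Col1a1 changed by -2.02, Col3a1 X70369_s_at by -1.74, Col5a2 by -1.35 and Col1a2 by -1.31 on the log2 scale. Against young kidney only Col1a1 M27207mRNA_s_at (-0.75, limma adjusted p = 0.018) and Col3a1 X70369_s_at (-0.97, limma adjusted p = 0.020) were called, both lower, beside 0.229% of all probe sets called and 0.168% called lower. In X70369_s_at no unstaged array reached the lowest young one, as in 0.0305% of all probe sets. The fit blocked by batch called 4 (1.01% of all), inside batch 2 8 (27.1%) and inside batch 3 none by limma (0% of all called), with 4 at an unadjusted p below 0.05. The Col3a1 call was lost without unstaged replicate 9, at a limma adjusted p of 0.052. Against the arrays without a stage word, mature kidney had none of the 10 called by limma (0.412% of all called, 0.214% called lower), 4 at an unadjusted p below 0.05, and differences between -0.63 for Col3a1 X70369_s_at and -0.03 for Col12a1. With batch as a block Col5a1 was called lower in mature kidney in that contrast, a log2 change of -0.35 (limma adjusted p = 0.013), the single call among the 10 in a fit that called 5.26% of all probe sets. Inside batch 3 mature kidney had 1 of the 10 called against the unstaged arrays (0.214% of all), and inside batch 2 the unstaged arrays had 9 called lower against immature kidney (43.4% of all).

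The stage contrasts were also read on each side of 600 in X56596_at, a division of the arrays that no label gives. No test was made between the sides. Among the 12 arrays above 600, mature and immature arrays all belong to batch 1 and young and unstaged arrays all to batch 2, so that there stage and batch cannot be told apart except in mature against immature kidney and in unstaged against young kidney. Col1a1 M27207mRNA_s_at read 694.4, 1230.2 and 887.3 on the mature arrays above 600, against 5831.6, 4697.7 and 4025.3 on the immature ones. All 3 mature arrays lay far below the 3 immature ones. Col1a2 read 576.2, 751.5 and 690.1 on those mature arrays, against 3059.0, 2679.1 and 1545.9 on the immature ones, again with no overlap. Col3a1 X70369_s_at read 375.9, 276.8 and 327.7, against 1916.5, 900.0 and 1263.2, and Col5a2 read 98.5, 116.5 and 148.7, against 250.9, 276.3 and 226.1, in the same order of mature and immature arrays.

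Above 600, mature against immature kidney had 6 of the 10 probe sets called lower (5.71% of all called, 2.18% called lower). In 8 of the 10 no mature array reached the lowest immature one, as in 9.57% of all probe sets. The changes were -2.37 for Col1a1 M27207mRNA_s_at, -1.95 for Col3a1 X70369_s_at, -1.78 for Col1a2 and -0.97 for Col5a2, whose call was lost without mature replicate 4 (limma adjusted p = 0.077). Below 600, 9 of the 10 were called lower (28.3% of all called, 15.9% called lower) and 7 had no overlap (0.748% of all lower with no overlap), with -2.38 for Col1a1, -2.49 for Col3a1 X70369_s_at, -1.42 for Col1a2 and -1.95 for Col5a2. In mature against young kidney 3 were called above 600 (7.35% of all called, 4.45% called lower) and 7 below 600 (0.732% and 0.458%), all lower. With no overlap there were 8 of the 10 above 600 (19.6% of all) and 1, Col3a1 X70369_s_at, below 600 (0.0763%). The calls above 600 were Col3a1 X70369_s_at, Col5a2 and Col1a1 rc_AI231472_s_at, and the calls of Col5a2 and rc_AI231472_s_at were lost without any one of young replicates 1, 2 and 14 or mature replicates 4 and 8, with limma adjusted p-values up to 0.10 and 0.11. A joint fit of all 55 arrays with 8 groups of description and side called none of the 10 above 600 in mature against young kidney by limma (6 at an unadjusted p below 0.05, 1.82% of all called), with an adjusted p of 0.056 for Col3a1 X70369_s_at.

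The young arrays above 600 held intermediate values in some of the genes. Col1a1 M27207mRNA_s_at read 1866.8, 1279.6 and 1568.5 on them, and Col1a2 read 819.0, 694.7 and 728.0, which overlapped with mature arrays on the same side. Col3a1 X70369_s_at read 1154.1, 945.9 and 990.8, between the lowest and highest of the immature arrays there, and Col5a2 read 301.8, 213.5 and 203.6, around the immature values. The unstaged arrays above 600 read 503.4, 1341.7 and 728.8 in Col1a1, 496.8, 754.9 and 622.2 in Col1a2, 342.6, 481.8 and 487.4 in Col3a1 X70369_s_at and 126.6, 159.5 and 106.9 in Col5a2. In Col1a1 their range overlapped with both the mature and the young arrays of that side.

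The remaining genes had narrow ranges above 600. Col5a1 read 404.9, 435.5 and 516.1 on the mature arrays, against 515.0, 471.9 and 539.5 on the immature ones, with 555.2, 504.1 and 530.1 on the young ones. The mature and immature arrays overlapped, and the change of -0.17 missed the test (limma adjusted p = 0.55). Col12a1 read 161.8, 195.9 and 191.4 on the mature arrays, against 198.3, 211.0 and 259.1 on the immature ones, which did not overlap, and its change of -0.26 missed the test (limma adjusted p = 0.39). Col3a1 M21354_s_at read 537.6, 353.0 and 472.7 on the mature arrays, against 558.4, 453.3 and 679.1 on the immature ones, a change of -0.30 (limma adjusted p = 0.43). Below 600 Col12a1 changed by -0.62 (limma adjusted p = 0.0011) and M21354_s_at by -0.85 in the same contrast, both called, and Col5a1 by 0.29 (limma adjusted p = 0.14). Without the arrays with raised 3'/5' ratios all 10 probe sets were called below 600, 9 lower and 1 higher, where 35.6% of all were called. With batch as a block below 600, where no immature array lies in batch 3, the Col12a1 change was -0.51 and no longer called (limma adjusted p = 0.0998), and the Col5a1 change was -0.35 (limma adjusted p = 0.11), the opposite sign, while M21354_s_at was called at -1.31. Of the 4 arrays with raised 3'/5' ratios 1, mature replicate 12, lies above 600.

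Side and batch moved together among the immature arrays of Col1a2 and Col5a2. Col1a2 read 1545.9 to 3059.0 on the 3 immature arrays above 600 and 1534.7 to 1719.6 on the 3 immature arrays of the same batch below 600, with 997.2 to 1389.2 on the 7 of batch 2. Col5a2 read 226.1 to 276.3 above 600, 294.1 to 371.5 below 600 in the same batch and 440.3 to 526.2 in batch 2. In both genes the 3 immature arrays of batch 1 below 600 lay apart from the 7 of batch 2. In young against immature kidney 3 of 10 were called above 600, all lower (15.6% of all called, 5.87% called lower), and 8 below 600, 7 lower and Col5a1 higher (19.2% and 10.1%). With no overlap there were 3 of the 10 above 600 (17% of all) and 3 below 600 (0.9%). Col5a2 changed by -0.08 above 600 in that contrast (limma adjusted p = 0.84) and by -1.17 below 600 (limma adjusted p = 1.5e-05), and the difference between these values was not tested. The Col5a1 call below 600 was lost with batch as a block, at 0.12 (limma adjusted p = 0.77).

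Array by array, the brightest Col1a1 probe set moved with that of the partner chain, Col1a2. Deviations of each array from the mean of its description and side were correlated with those of Col1a1 M27207mRNA_s_at over 55 arrays, in 8 relations. For Col1a2 Pearson's r was 0.62 and Spearman's rho 0.53 (permutation p = 7e-05 and 0.00024, adjusted 0.00056 and 0.0019), and r was 0.44 without mature replicate 9 and unstaged replicate 14, the arrays farthest out. Inside batches 1, 2 and 3 r was 0.77, 0.79 and 0.55 over 10, 19 and 26 arrays, and it was 0.53 over the 51 arrays without raised 3'/5' ratios. Col3a1 X70369_s_at had r = -0.15 and rho = 0.04, Col5a2 had r = -0.32 and rho = -0.14, Col5a1 had r = -0.33 and rho = -0.18, and Col12a1 had r = 0.04 and rho = 0.02, none with an adjusted permutation p below 0.05. Of the other Col1a1 probe sets Z78279_g_at had r = 0.43 (adjusted permutation p = 0.020, rho = 0.34, adjusted 0.070), and rc_AI231472_s_at and Z78279_at had r = -0.21 and -0.27. Probe sets of the same gene did not all share the array-to-array spread.

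Over the log2 values of all 55 arrays, stage differences included, the genes outside the 6 most alike to Col1a1 were Eln (r = 0.83), which encodes elastin of vessel walls, Agrn (0.79), a basement membrane proteoglycan, Calb1 (0.77), the calcium-binding protein of the distal tubule, Ptgfrn (0.77) and Fabp3 (0.77), a fatty acid carrier, among 3829 genes. Eln had medians of 748.6 in immature, 536.75 in young and 387.85 in mature kidney, and 454.0 without a stage word. By the deviations from description and side the most alike were Acta2 (r = 0.66), the smooth muscle actin, Myo1e (0.65), Sorbs2 (0.64), Pdgfra (0.64), a receptor of interstitial fibroblasts, and Hsd11b2 (0.63). Set against the genes outside the 6, Col1a2 (r = 0.62) stood only at rank 10 by this measure. These r values describe likeness over arrays that share stage, batch and scaling.

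Other genes of collagen biology moved less uniformly in mature against immature kidney. Of 27 other collagen genes listed, 8 were on the array and 5 passed the filter, with 1 called higher and 2 lower and a median change of 0.08, beside 24.4% called, 14.1% called lower and a median of 0.04 over all probe sets. Col4a5, a chain of basement membrane type IV collagen, changed by -1.67 (limma adjusted p = 2.5e-07), with medians of 531 in immature, 416.4 in young and 232.5 in mature kidney. Col15a1 changed by -0.42 and Col8a1 by 0.45, both called, and Col10a1 and Col4a3 had 0.24 and 0.08 without a call. The Col8a1 change was 0.10 with batch as a block (limma adjusted p = 0.72).

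In the list of collagen synthesis and assembly 16 of 30 genes were on the array and tested, with 1 called higher and 5 lower and a median of -0.17, beside the same 24.4% of all called and 14.1% called lower. Fn1 (-1.63) encodes fibronectin, on which collagen fibrils are laid down, Serpinh1 (-1.15) the chaperone of procollagen, Dcn (-1.11) the fibril-binding proteoglycan decorin, and Plod2 (-0.66) a lysyl hydroxylase that sets cross-links. Plod3, another lysyl hydroxylase, was called higher by 0.39. Of the 3 other Fn1 probe sets none was called lower and 1 had the opposite sign. Serpinh1 (-0.83) and Fn1 (-0.72) were also called lower in mature against young kidney, 2 of the 16, where 1.8% of all probe sets were called. Inside batch 1, where 0.717% of all probe sets were called, none of the 5 named genes was called. Fn1 was at -1.14 (limma adjusted p = 0.058) and Serpinh1 at -0.75 (limma adjusted p = 0.29). In the list of collagen binding, signals and turnover 28 genes were named, 23 were on the array and 20 were tested, of which 3 were called higher and 3 lower, with a median of 0.02, a share of calls close to the 24.4% over all probe sets. Mmp9, a gelatinase, changed by -1.29, Ctsk, a collagen-degrading protease, by -0.97, Itgb1, the beta chain of collagen-binding integrins, by -0.52, Ddr1, a collagen receptor kinase, by 0.43 and Tgfb1, the best known inducer of collagen genes, by 0.64. With batch as a block Itgb1 changed by -0.23 (limma adjusted p = 0.20) and Tgfb1 by 0.22 (limma adjusted p = 0.65), neither called.

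**Figure D4:**
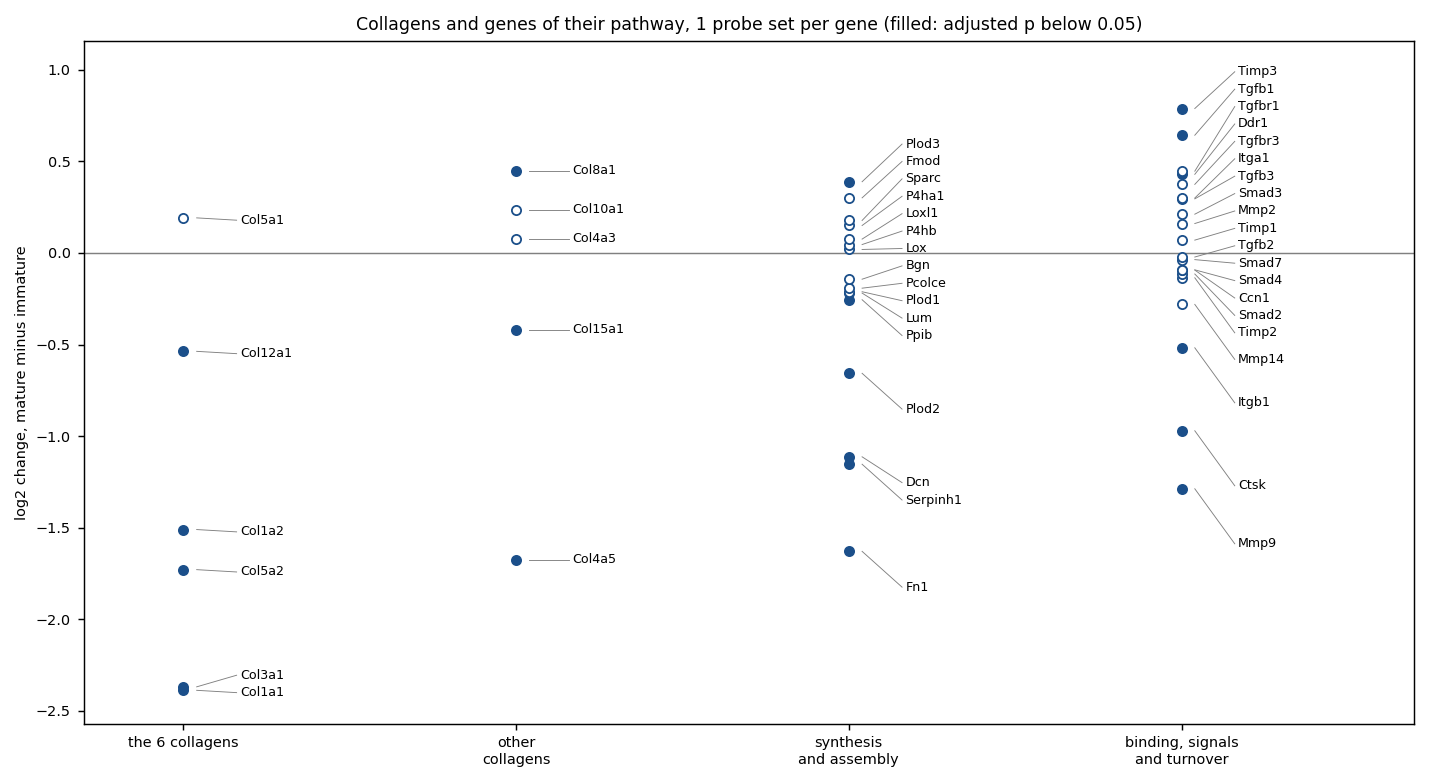
Log2 change in mature against immature kidney for the 6 collagens and the genes of 3 lists, 1 probe set per gene; filled points have an adjusted p below 0.05. Col1a1 and Col3a1 lie lowest at -2.39 and -2.37, and the listed genes spread on both sides of 0.

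Some markers of the cells that make these collagens differed between the descriptions, as did some tubule markers. The summed intensity of 10 interstitial fibroblast and pericyte markers on the array was 6723.4 to 11545.8 (median 8613.9) in immature, 4226.4 to 6681.0 (median 5410.85) in young and 3670.3 to 11184.0 (median 4847.6) in mature kidney, and 3490.2 to 6750.9 (median 4841.1) without a stage word. Of 9 that passed the filter 3 were called lower in mature against immature kidney, Dcn, Tcf21 and Mgp, and 1, Pdgfrb, higher. Over all probe sets 24.4% were called and 14.1% called lower in that contrast. With batch as a block Dcn was called at -0.93 (limma adjusted p = 0.017), while Tcf21 at -0.77 (0.14), Mgp at -0.36 (0.19) and Pdgfrb at 0.43 (0.076) were not, and S100a4 and Thy1 were called lower. Inside batch 1 Tcf21 had a change of 0.08. Postn had a median of at most 7.6 in every set. Dcn and Lum are also in the list of synthesis and assembly. The sum of 8 smooth muscle markers was 2159.4 to 4076.1 (median 2856.2) in immature and 1396.4 to 3313.0 (median 1908.75) in young kidney. It was 1117.9 to 5256.8 (median 1744.65) in mature kidney and 1714.8 to 3127.9 (median 2441.65) without a stage word. The highest mature sum thus lay above every immature one. Of the 6 tested 2 were called lower and none higher, beside the same 24.4% of all called and 14.1% called lower. The part of these cells in the collagen differences was not tested. Tubule markers were called too in mature against immature kidney. Of 9 loop and collecting duct markers 5 were called lower and 1 higher, and of 9 proximal tubule markers 1 lower and 4 higher. Of the bone and cartilage markers, whose tissues make the same collagens, Ibsp, Acan, Comp, Bglap and Col2a1 were dim, with medians of at most 8.0, 18.75, 32.6, 46.45 and 52.9 in every set, the last being 52.9 in immature kidney and at most 25.9 in the other sets. Spp1, which tubules also express, had medians of 4303.8 in immature, 2721.55 in young and 2157.35 in mature kidney, and was called lower in mature against immature kidney (-0.78, limma adjusted p = 0.00068). Alpl, which is also a tubule enzyme, had medians of 11786.8 to 16931.8 and was not called (limma adjusted p = 0.069), although with batch as a block it was called lower (limma adjusted p = 0.0013).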

How the data were processed

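The authors deposited 1-colour array intensities, not log transformed. How probes were summarised is not given in the sources used here. Arrays had already been scaled to a common level, with 2% trimmed means between 500.2 and 500.7, and were not rescaled. The platform annotation gave a single symbol to 7018 of the 8799 probe sets, more than 1 to 308 and no symbol to 1473, and 6994 symbols were brought up to date through the RefSeq gene table of GRCr8. An offset of 15.82 (0.1 of the median) was added before log2, the 59 control probe sets were left out and probe sets below the 25th percentile of mean log2 were removed, leaving 6555. Contrasts of the 4 descriptions were fitted with limma 3.58.1 (R 4.3.3) over all arrays, and separately over the arrays on each X56596_at side, with Benjamini-Hochberg adjustment over all probe sets. Permutation tests used SciPy 1.17.1. Technical batches came from clustering 42 control probe sets. The members, gene lists and tests were chosen with earlier results of these data known. All probe sets of the 6 genes are named, the brightest standing for its gene, with up to 5 genes of each list, those of smallest p between mature and immature kidney, and the 5 genes most alike to Col1a1 by each measure. Data were also simulated with independent normal noise, few changed probe sets and no batches. There, changes of 1 on the log2 scale in mature against immature kidney were recovered at 88.1% over all arrays, 55.2% above 600 and 82.1% below. The real arrays fall into batches, so these rates describe the simulation only. Alternatives were other scaling, offsets, filters, array weights, blocks for batch and side, left-out arrays and fits inside batches. The number of arrays limits the precision.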

Additional observations from a re-analysis of the deposited data

Results flagged for a closer look

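Among 10 checks of the collagen probe sets for a single array far from the rest of its group, 1 stood out, and chance alone marks about 1 group in 20. On immature replicate 5, an array with X56596_at below 600, Col3a1 M21354_s_at read 508.3, the lowest of the 10 immature arrays on that side, the highest being 849.7. The other Col3a1 probe set was not set apart there by the same check.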

How the results depend on the processing

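Single probe sets were recomputed in the 3 stage contrasts under each alternative: 448 values kept their direction and their side of the threshold, 17 fell short of it, 5 passed it and 10 changed sign. The changes of sign were Col5a1 in mature against immature kidney, at -0.27 with batch as a block, -0.29 with batch and side as a block, -0.21 with the block and without raised 3'/5' ratios and -0.31 inside batch 1, and Col3a1 M21354_s_at in young against immature kidney, where neither value was called, at -0.021 with median centring, -0.11 with array weights, -0.15, -0.27 and -0.14 with the same 3 blocks and -0.017 inside batch 2. The counts of called probe sets, 9 in mature and 8 in young against immature kidney, stayed within 1.5 times in every alternative run, and leaving out single arrays gave 9 and 8. For mature against young kidney the count of 8 was 4 inside batch 3 (0.442% of all called) and 6 to 8 without single arrays. It was 6 without the 4 arrays with raised ratios (0.732%) and 6 with the log2 GAPDH ratio as a covariate (0.595%). For arrays without a stage word against young kidney, the count of 2 was 0 with median centring (0.0458% of all called). There 7 had an unadjusted p below 0.05 by limma. Array weights gave 4 (5.68% of all), as did batch (1.01%) and batch and side (1.13%) as a block. The batch block without raised ratios gave 7 (5.14%), batch 2 gave 8 (27.1%) and batch 3 gave 0 (0%). Leaving out single arrays gave 1 to 2, where unstaged replicate 9 took the call of Col3a1 X70369_s_at (limma adjusted p = 0.052). Against the arrays without a stage word, the count of 0 in mature kidney was 2 with array weights (1.11% of all called). It was 1 with the batch block (5.26%), 3 with batch and side (5.02%) and 4 with the block and without raised ratios (12.1%). It was 1 inside batch 3 (0.214%) and 0 without single arrays. The cause of these shifts was not tested. Against immature kidney the unstaged count was 8 to 10 without single arrays, and the call of Col5a1 was lost without unstaged replicate 14 (limma adjusted p = 0.052). Above 600 a batch block could not be fitted across batches, and the calls summed over its 6 contrasts were 17 to 22 without single arrays. The block of batch and side and the block without raised ratios were chosen after seeing the data, as were the fits inside batches for the unstaged contrasts, above 600 and for the pairwise differences. No paired analysis was possible because the labels carry no replicate numbers shared between groups. The number of arrays, 3 per description above 600, limits what can be called there.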
